A study of Mus musculus with 16 samples.

Results

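Small leucine-rich proteoglycans are secreted matrix proteins whose core holds a row of leucine-rich repeats and, in most of them, carries chains of chondroitin, dermatan or keratan sulfate. The curved core binds fibrillar collagen and sets the width and spacing of its fibrils, and several of the cores also hold growth factors such as TGF-beta in the matrix or bind cell surface receptors. In tumours they are known as products of the stroma, made chiefly by fibroblasts and other mesenchymal cells. The family is described here through 7 genes, taken as every probe of the deposited expression table whose symbol was Dcn, Bgn, Aspn, Lum, Prelp, Fmod or Ogn. They are 7 of 16537 genes in the table and are read by 14 probes. By class, decorin (Dcn), biglycan (Bgn) and asporin (Aspn) belong to class I, lumican (Lum), prolargin (Prelp) and fibromodulin (Fmod) to class II, and osteoglycin (Ogn) to class III.

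RNA came from 2 cell types, tumour pericytes and tumour endothelial cells, each sorted by flow cytometry without culture from primary tumours of 67NR, a mouse mammary carcinoma line, in the mammary fat pad. All hosts were female BALB/c mice carrying Ub-GFP, aged 6 to 8 weeks, and were either wild type or knockout for endosialin (Cd248), a membrane glycoprotein of pericytes and fibroblasts. Crossing cell type with genotype gives 4 groups, with 4 Illumina MouseWG-6 v2 arrays each. The knockout is of the host, and no gate marker is named in the sources used here. Since no label says whether replicates are separate animals, p-values reflect the spread between the arrays at hand and no more.

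Values are the authors' normalized log2 intensities. Array medians lay between 7.18 and 7.21 and the lowest value in the table was 6.58, so a probe near 6.8 is close to the floor of the scale and folds against such a level are understated. Cd248 lay between 10.75 and 11.19 in wild-type pericytes, between 6.96 and 7.21 in knockout pericytes, and at or below 7.44 on every endothelial array. All 10 endothelial markers measured were lower in wild-type pericytes than in wild-type endothelial cells. The second principal component, with 5.73% of the variance, set knockout pericyte replicates 2, 3 and 4 apart from the other pericyte arrays. In bulk samples, fewer cells of a type and less RNA per cell cannot be told apart.

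The first question was in which of the sorted cells the proteoglycans are transcribed. In wild-type hosts 6 of the 7 genes were higher in pericytes than in endothelial cells, and the same 6 were higher in knockout hosts. Dcn, Bgn and Lum stood far above their endothelial levels, by 20.0-, 17.8- and 10.2-fold in wild type. Aspn, Ogn and Prelp differed by 2.70-, 1.66- and 1.62-fold, and Fmod did not pass the test. Tests were limma's moderated tests with Benjamini-Hochberg adjustment and a threshold of 0.05. With every one of 16537 genes tested, 12.7% were called higher and 13.2% lower in wild-type pericytes, and 13.4% higher and 13.4% lower in knockout pericytes. The median difference of the 7 genes was 1.43 on the log2 scale in wild-type hosts and 1.13 in knockout hosts, where all genes had a median of -0.01 in both.

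**Figure D1:**
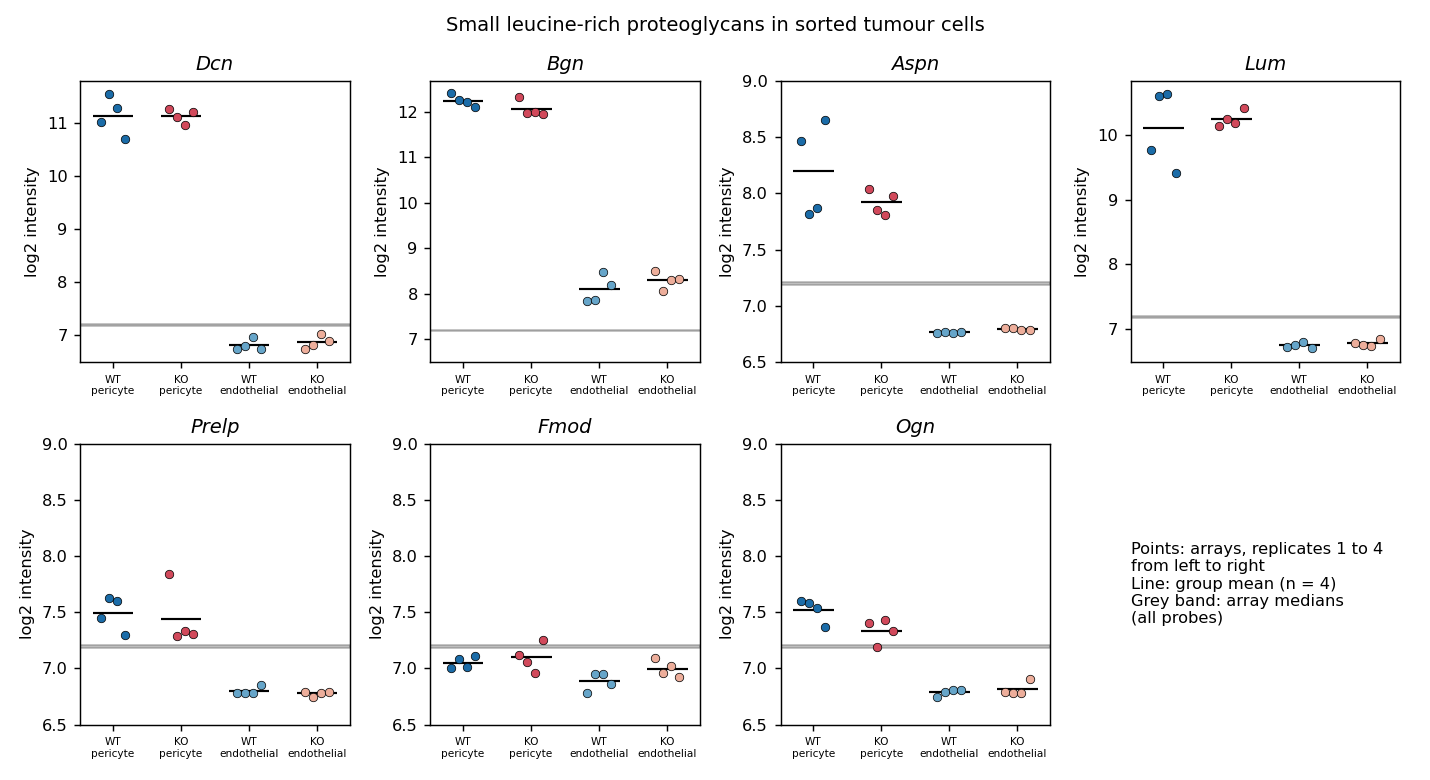
Log2 intensity of each of the 7 genes on the 16 arrays (points, replicates 1 to 4 from left to right), with the mean of each group of 4 as a line and the range of array medians as a grey band. Vertical axes differ between genes; for Dcn, Lum, Aspn, Prelp and Ogn the endothelial arrays lie below the band, for Bgn they lie above it, and for Fmod 1 of the 16 arrays is above it.

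Decorin is the founding member of the family, a proteoglycan with a single glycosaminoglycan chain that decorates collagen I fibrils and binds TGF-beta. The probe with the highest mean (ILMN_2596346) read 11.02, 11.55, 11.28 and 10.69 on wild-type pericyte arrays 1 to 4 and 11.26, 11.11, 10.97 and 11.20 on knockout pericyte arrays. It read 6.75, 6.79, 6.97 and 6.75 on wild-type endothelial arrays and 6.75, 6.81, 7.02 and 6.90 on knockout endothelial arrays. Every pericyte array thus lay far above every endothelial array, and the endothelial values sat near the floor of the scale in both genotypes. The wild-type difference was 4.32 (SE 0.14, limma, adjusted p = 2.58e-14), the 4th largest of the 10426 genes that passed a filter on low values. The knockout difference was 4.26, a 19.2-fold one (limma, adjusted p = 3.48e-14), and ranked 3rd.

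Biglycan is the closest relative of decorin and usually carries a pair of chondroitin or dermatan sulfate chains; freed from the matrix, it is known as a ligand of the innate receptors Tlr2 and Tlr4. Its probe (ILMN_2964042) read 12.42, 12.27, 12.21 and 12.11 in wild-type pericytes and 12.34, 11.98, 12.01 and 11.96 in knockout pericytes. In endothelial cells it read 7.85, 7.86, 8.47 and 8.20 in wild-type hosts, and in knockout hosts 8.49, 8.06, 8.30 and 8.33. Bgn was the only one of the 7 genes above the array median on all 8 endothelial arrays, although each of them lay far below each pericyte array. The difference was 4.16 in wild type (SE 0.13, limma, adjusted p = 3.03e-14, rank 7 of 10426) and 3.78 in knockout, 13.7-fold (limma, adjusted p = 1.33e-13, rank 18).

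Asporin has a core like that of decorin with a stretch of aspartates and lacks the usual glycosaminoglycan attachment; it competes with decorin for collagen and binds TGF-beta. Its probe (ILMN_1231476) read 8.47, 7.82, 7.87 and 8.65 in wild-type pericytes and 8.04, 7.85, 7.81 and 7.98 in knockout pericytes. The endothelial arrays lay between 6.76 and 6.80. Wild-type pericyte replicates 1 and 4 stood above all other arrays, while the remaining pericyte arrays were close together and all above the endothelial ones. The difference was 1.43 in wild type (SE 0.14, limma, adjusted p = 1.51e-07, rank 287) and 1.13 in knockout, 2.18-fold (limma, adjusted p = 3.41e-06, rank 461).

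Lumican is a keratan sulfate proteoglycan in the cornea and a plain glycoprotein in most other tissues, and it regulates collagen fibril assembly. Its brighter probe (ILMN_3001540) read 9.76, 10.60, 10.63 and 9.41 in wild-type pericytes and 10.13, 10.24, 10.18 and 10.41 in knockout pericytes. Endothelial arrays read between 6.72 and 6.80 in wild type and between 6.75 and 6.85 in knockout. The spread was widest in wild-type pericytes, where replicates 1 and 4 were the low arrays, the same arrays on which Aspn was high. The difference was 3.35 in wild type (SE 0.19, limma, adjusted p = 9.92e-11, rank 34) and 3.45 in knockout, 10.9-fold (limma, adjusted p = 6.84e-11, rank 30).

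Prolargin has a basic N-terminal region that binds heparin and anchors collagen to basement membranes. Its probe (ILMN_2739760) read 7.45, 7.63, 7.60 and 7.30 in wild-type pericytes and 7.84, 7.29, 7.33 and 7.31 in knockout pericytes. The endothelial arrays lay between 6.75 and 6.85. All pericyte arrays were above the array median and all endothelial arrays below it, and knockout pericyte replicate 1 was the highest. The difference was 0.70 in wild type (SE 0.11, limma, adjusted p = 4.54e-05, rank 811) and 0.67 in knockout, 1.59-fold (limma, adjusted p = 7.53e-05, rank 843).

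Fibromodulin is a keratan sulfate proteoglycan of tendon and cartilage that binds collagen I at a site shared with lumican and helps enzymatic cross-linking. Its brighter probe (ILMN_1230020) read 7.08, 7.01 and 7.11 on wild-type pericyte arrays 2 to 4 and just under these on array 1. It read 7.12, 7.06, 6.96 and 7.25 in knockout pericytes, 6.78, 6.95, 6.95 and 6.86 in wild-type endothelial cells and 7.09, 6.96, 7.02 and 6.92 in knockout endothelial cells. A single one of the 16 arrays, knockout pericyte replicate 4, was above its array's median. The wild-type pericyte arrays lay just above the wild-type endothelial arrays, while the knockout groups overlapped. In a fit of every probe the difference was 0.16 in wild type (95% interval 0.02 to 0.31, limma, adjusted p = 0.0835) and 0.10 in knockout (-0.04 to 0.24, limma, adjusted p = 0.327). The other Fmod probe (ILMN_2999762) differed by -0.03 and -0.02 and lay below the array median on all 16 arrays.

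Osteoglycin, also called mimecan, is a proteoglycan of bone, cornea and connective tissue that carries keratan sulfate in some tissues. Its representative probe (ILMN_2859613) read 7.60, 7.58, 7.54 and 7.37 in wild-type pericytes and 7.40, 7.19, 7.43 and 7.33 in knockout pericytes. The endothelial arrays lay between 6.75 and 6.91. Pericyte and endothelial arrays did not overlap, and 1 knockout pericyte array lay below its array's median. The difference was 0.73 in wild type (SE 0.08, limma, adjusted p = 4.55e-07, rank 769) and 0.52 in knockout, 1.44-fold (limma, adjusted p = 2.90e-05, rank 1105).

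A gene entered the ranking above when a probe was above its array's median on at least 4 of the 16 arrays. Of the 7 genes 6 entered, and Fmod did not. Dcn, Aspn, Lum, Prelp and Ogn entered through pericyte arrays alone, with 0 of 8 endothelial arrays above the median, so their passing the filter already favoured a positive difference. In the filtered fit 17.1% of the 10426 genes were called higher in wild-type pericytes and 17.4% in knockout pericytes. Nothing is therefore read from the share called among the 6, and the counts over all 7 genes and over all 14 probes are given in its place. The ranks and adjusted p-values given above for the 6 genes come from this filtered fit. With every gene tested, the wild-type adjusted p in limma was 5.90e-13 for Dcn, 7.17e-13 for Bgn and 1.31e-09 for Lum. It was 6.36e-07 for Aspn, 2.18e-07 for Ogn and 6.94e-05 for Prelp.

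The probes gave differences of varied size, all positive except that of the Fmod probe ILMN_2999762, at -0.03 and -0.02. Fitted singly, 12 of the 14 were higher in wild-type pericytes, where 12.5% of all 24040 probes were, and 11 of the 14 in knockout pericytes, where 13.1% were. All wild-type pericyte arrays lay above all wild-type endothelial arrays for 13 of the 14 probes, against 13.2% of all probes. In knockout this held for 11 of the 14, against 14.6%. The median probe differed by 0.88 in wild type and 0.98 in knockout. Of the 4 Dcn probes, 2 differed by 4.32 and 4.36 in wild type and the other two (ILMN_1254458 and ILMN_2604695) by 0.90 and 0.74, so the fold given for Dcn depends on the probe. The dimmer Lum probe (ILMN_2773259) differed by 2.48 in wild type and 2.56 in knockout. The second Ogn probe (ILMN_2859619) differed by 0.86 and 0.53, and the dimmest (ILMN_2740622) by 0.36 in wild type and by 0.18 in knockout, where it did not pass (limma, adjusted p = 0.0669). Probes of one gene share its transcripts and are not replicates.

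**Figure D2:**
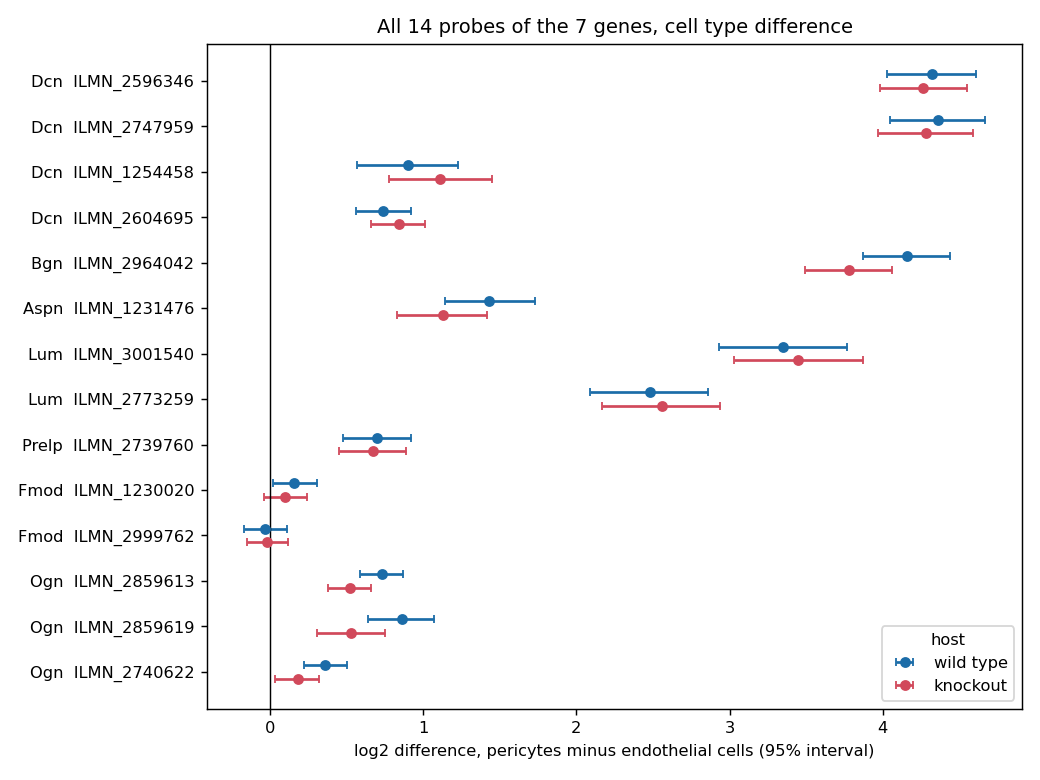
Log2 difference between pericytes and endothelial cells for each of the 14 probes in wild-type and knockout hosts, with 95% intervals from the limma fit of every probe. Probes of Dcn fall into a pair above 4 and a pair near 1, and both Fmod probes lie near 0.

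Markers of a second mesenchymal cell type moved with this comparison. All 13 fibroblast markers on the list were higher in wild-type pericytes and 12 of 13 in knockout pericytes, with median differences of 3.38 and 3.40. The mean of that list lay between 9.70 and 10.32 on wild-type pericyte arrays, 9.86 and 10.26 on knockout pericyte arrays, and at or below 7.12 on all endothelial arrays. Of 11 pericyte markers measured, 7 were higher and 1 lower in wild-type pericytes, with a mean between 8.36 and 9.64 against 7.71 to 8.01 in wild-type endothelial cells. Pericytes and fibroblasts are both known to make these proteoglycans, and the part of each in the pericyte signal was not tested. Markers of other cell types were counted as well, and their part in the comparison was not tested. Over all genes 12.7% were higher and 13.2% lower in wild-type pericytes, and 13.4% higher and 13.4% lower in knockout pericytes. Counts on short lists that lie near these shares are no result about a cell type. Of 19 keratinocyte markers, 1 was higher in wild-type pericytes (median 0.16) and 18 in knockout pericytes (median 1.65). Of 7 mast cell markers, 2 were higher in wild type (median 1.57) and 4 in knockout (median 1.63), with 1 lower in each. Of 5 luminal epithelial markers, 0 were higher in wild type (median 0.36) and 2 in knockout (median 0.70). In each genotype 1 of 2 T cell markers was higher (medians 0.86 and 1.10), as was 1 of 3 for cartilage, bone and tendon (medians 0.02 and 0.01). Of 5 smooth muscle markers, 1 was higher and 1 lower in each genotype (medians 0.12 and 0.04), and 0 of 3 macrophage markers were higher.

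Promoter sequence was matched for 5 of the 7 genes, Bgn, Aspn, Prelp, Fmod and Ogn, as the 250 bases before the annotated start (RefSeq, mouse build GRCm38.p6). The first pair shows Bgn, which was above the array median in both cell types, beside Aspn, which was at the floor in endothelial cells and uneven among wild-type pericyte arrays. Of 9 motifs searched on both strands, capitals mark matches to 5. The TATA box was searched as TATAAA. The CCAAT box was searched by its name's letters. The GC box was searched as GGGCGG. The AP-1 site was searched as TGANTCA, and the TEAD site as GGAATG. Each sequence is written 5′ to 3′ on the strand of its gene.
Bgn, chrX:73483351-73483600, plus strand: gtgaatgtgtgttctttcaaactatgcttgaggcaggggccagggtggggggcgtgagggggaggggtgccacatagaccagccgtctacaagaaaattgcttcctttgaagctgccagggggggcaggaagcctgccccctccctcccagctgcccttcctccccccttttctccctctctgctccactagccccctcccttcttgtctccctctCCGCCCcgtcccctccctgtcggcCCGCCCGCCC
Aspn, chr13:49544193-49544442, plus strand: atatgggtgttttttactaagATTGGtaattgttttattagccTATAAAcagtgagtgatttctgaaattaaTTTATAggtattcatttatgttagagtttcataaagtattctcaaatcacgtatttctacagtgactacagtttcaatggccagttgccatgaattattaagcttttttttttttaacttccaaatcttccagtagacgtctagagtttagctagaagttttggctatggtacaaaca
The Bgn window is 64.4% G or C and holds 3 GC boxes close to the start, of which 2 overlap, and no TATA or CCAAT box. The Aspn window is 30.0% G or C and holds a TATA box on each strand and a CCAAT box on the minus strand, all of them far from the annotated start, and no GC box. The median G or C share of all 32851 promoter windows of this length was 52.4%.

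The second pair shows Prelp beside Fmod, neighbours on chromosome 1 that differed in the cell type comparison, Prelp being higher in pericytes and Fmod not called.
Prelp, chr1:133921402-133921651, minus strand: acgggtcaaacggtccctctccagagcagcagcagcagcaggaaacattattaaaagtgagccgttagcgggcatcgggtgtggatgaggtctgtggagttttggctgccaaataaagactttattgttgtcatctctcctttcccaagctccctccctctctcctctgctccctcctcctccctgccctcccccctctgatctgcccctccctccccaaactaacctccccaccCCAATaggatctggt
Fmod, chr1:134037004-134037253, plus strand: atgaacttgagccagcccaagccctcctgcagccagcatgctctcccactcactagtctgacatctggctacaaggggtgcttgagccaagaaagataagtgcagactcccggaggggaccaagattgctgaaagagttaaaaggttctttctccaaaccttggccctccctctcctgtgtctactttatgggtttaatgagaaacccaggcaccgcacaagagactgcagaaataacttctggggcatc
The Prelp window holds a CCAAT box near the start of the gene and the Fmod window holds none of the 5 motifs marked. Over the 5 promoters, TATAAA was present in 2 (Aspn and Ogn), where 12.4% of all windows hold it, and CCAAT in 2 (Aspn and Prelp), against 33.8%. GGGCGG was present in 1, against 32.7%, GGAATG in 1 (Ogn), against 12.6%, and TGANTCA in 0, against 6.75%. The other four motifs are not marked. The E-box, CANNTG, was present in 4 (all but Prelp), against 66.2%. The C/EBP site, TTNNGNAA, was present in 3 (Aspn, Prelp and Fmod), against 36.8%. The SMAD-binding element, GTCTAGAC, was present in 0, against 0.167%, and the SRF CArG box in 0, against 1.47%. None of the 9 motifs was present in all 5 windows, and a match in these letters is a description of the window.

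The 7 genes lie mostly in clusters with other family members. In the RefSeq order of mouse genes, Dcn and Lum are followed by the corneal keratan sulfate proteoglycan gene Kera and by Epyc, Aspn and Ogn flank Omd with Ecm2 beside them, Prelp and Fmod adjoin each other with Optc on the far side, and Bgn stands alone on the X chromosome. Kera, Epyc, Ecm2 and Optc are not analysed here. Omd, osteomodulin of bone, lies between Aspn and Ogn, and its arrays lay between 6.70 and 7.12 with a wild-type difference of 0.16 that did not pass (limma, every gene tested, adjusted p = 0.0636). In the filtered fit, genes next to these clusters that are no proteoglycans did not share one direction. Nol8 next to Ogn differed by -0.13 (limma, adjusted p = 0.472) and Haus7 next to Bgn by 0.21 (limma, adjusted p = 0.0559). Btg2 next to Fmod was higher in wild-type pericytes by 0.72 (limma, adjusted p = 0.00127) and Atp2b4, on the other side of that cluster, lower, at -0.93 (limma, adjusted p = 1.31e-05).

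Of 10 further members of the family, 4 were measured, and none of them passed the filter on low values. Their highest values were 7.12 for Omd, 7.03 for Tsku, 7.46 for Podn and 7.73 for Podnl1. Podocan (Podn) was higher in wild-type pericytes by 0.38 and in knockout pericytes by 0.47 (limma, every gene tested, adjusted p = 0.0277 and 0.00824). Podnl1, a podocan relative, was higher by 0.45 in wild type (limma, adjusted p = 0.0112) and stood at 0.18 in knockout, where it did not pass (limma, adjusted p = 0.323). Omd and tsukushi (Tsku), at 0.16 and 0.15 in wild type, did not pass in either genotype. Differences above 2 on the log2 scale were found for Dcn, Bgn and Lum, and the other members that passed differed by 1.43 or less.

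Genes that work with the proteoglycans were read from lists of their collagen ligands, chain-making enzymes, receptors, bound growth factors and proteases. Counts are over every gene measured, beside the 12.7% higher and 13.2% lower given above. The adjusted p-values of the genes named from these lists are those of the filtered fit. With every gene tested they were larger for Col3a1 and Col1a2, at 2.58e-13 and 5.29e-14 in wild type (limma). Collagens that bind the cores moved with them: 11 of 13 measured were higher in wild-type pericytes and 0 lower, with a median of 3.36, and in knockout the counts were the same with a median of 3.22. Col3a1, the collagen III chain of loose fibrils, was 33.9-fold higher in wild type (5.08, limma, adjusted p = 1.16e-14) and 27.3-fold in knockout. Col1a2, a chain of collagen I and the main partner of decorin, was 12.9-fold higher (3.69, limma, adjusted p = 4.01e-15). The microfibrillar collagen VI chains Col6a1 and Col6a2, which bind biglycan and decorin, differed by 3.36 and 4.06 (limma, adjusted p = 3.43e-14 and 4.54e-14).

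Enzymes of chondroitin and dermatan sulfate synthesis, which build the chains on decorin and biglycan, were mixed. Of 25 measured, 9 were higher and 3 lower in wild-type pericytes (median 0.12), and 7 higher and 3 lower in knockout (median 0.05). Dse, the epimerase that turns chondroitin into dermatan sulfate, was 3.59-fold higher (1.84, limma, adjusted p = 1.08e-11), and the chain polymerizing factor Chpf was higher by 1.01 (limma, adjusted p = 7.36e-08). The chondroitin 6-O-sulfotransferase Chst7 and Chst15, which adds a further sulfate to galactosamine and is named 4631426J05Rik in the table, were lower, at -0.88 and -0.80 (limma, adjusted p = 3.36e-08 and 2.40e-06). For keratan sulfate, the chain type of lumican and fibromodulin, 1 of 4 enzymes measured was higher and 2 were lower in wild type, with a median of -0.45. The galactosyltransferase B4galt1 was higher by 0.88, the sulfotransferase Chst1 and B4galt4 were lower at -1.39 and -0.75 (limma, adjusted p = 5.51e-04, 1.05e-07 and 2.01e-05), and Chst2 at -0.16 did not pass.

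Receptors for the core proteins were split between the cell types. Of 11 measured, 3 were higher and 5 lower in wild-type pericytes (median -0.10), and 3 higher and 4 lower in knockout (median -0.17). The endocytic receptor Lrp1, which takes up decorin, was 8.28-fold higher in pericytes (3.05, limma, adjusted p = 3.37e-13), Egfr, a decorin target, was higher by 1.77 (limma, adjusted p = 5.47e-09) and the hyaluronan receptor Cd44 by 1.35 (limma, adjusted p = 5.22e-05). The collagen-binding integrin chain Itga2 was lower, at -0.82 (limma, adjusted p = 3.03e-05). The receptor list includes Kdr, which is also on the endothelial marker list.

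Of 9 bound growth factors measured, 5 were higher and 2 lower in each genotype, with medians of 0.51 and 0.57. Wisp1, a matricellular protein known to bind decorin and biglycan, was higher by 1.64 and Tgfb2 by 0.91 (limma, adjusted p = 1.38e-07 and 8.24e-07). Pdgfb, the endothelial signal that recruits pericytes, and Bmp4 were lower in pericytes, at -1.48 and -0.49 (limma, adjusted p = 5.37e-07 and 0.00106). Of 10 proteases and processing factors measured, 7 were higher and 1 lower in each genotype, with medians of 1.45 and 1.37. Stromelysin Mmp3, which degrades decorin, was 14.9-fold higher (3.90), and the collagenase Mmp13 and gelatinase Mmp2 were higher by 2.57 and 3.30 (limma, adjusted p = 3.36e-13, 7.04e-12 and 2.06e-11). Bmp1, which cleaves the propeptide of biglycan, was higher by 1.63 (limma, adjusted p = 2.73e-08).

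**Figure D3:**
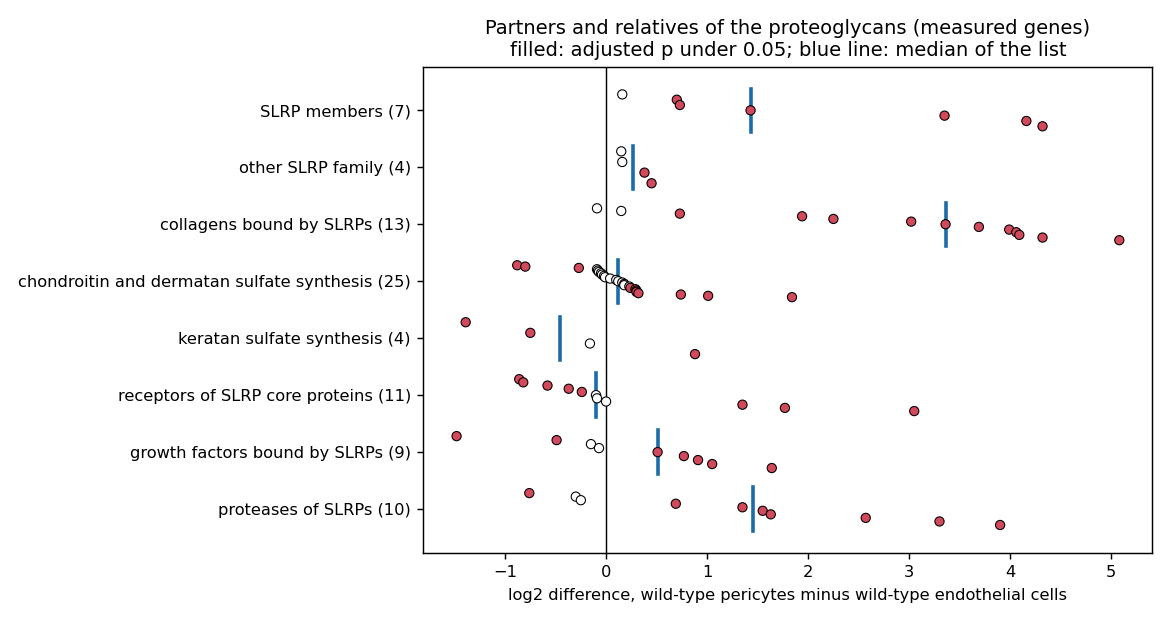
Log2 difference between wild-type pericytes and wild-type endothelial cells for every measured gene of each list (points, filled where adjusted p was under 0.05 with every gene tested) with the list median as a line and the number measured in brackets. Collagens and proteases lie mostly to the right of 0, while synthesis enzymes and receptors fall on both sides.

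The second question was whether loss of endosialin in the host changes the proteoglycans in the cells that carry it. None of the 7 genes passed the test in pericytes. Dcn averaged 11.14 ± 0.37 with endosialin and 11.14 ± 0.13 without it (SD, n = 4 each), a difference of 0.00 with a 95% interval from -0.29 to 0.29 (limma, adjusted p = 1.00). Bgn averaged 12.25 ± 0.13 and 12.07 ± 0.18, a difference of -0.18 (-0.46 to 0.10, limma, adjusted p = 0.856), and Lum 10.10 ± 0.61 and 10.24 ± 0.12, a difference of 0.14 (-0.27 to 0.54, limma, adjusted p = 0.938). Each interval includes values on both sides of 0, reaching -0.46 for Bgn and 0.54 for Lum, and does not show equal levels. The fit pools the spread of all 4 groups. Endothelial SDs were 0.10 and 0.12 for Dcn and 0.04 in both genotypes for Lum, and those of Aspn were smaller still. Intervals given for these genes in pericytes are therefore narrower than the pericyte arrays alone would give. In the filtered fit 0.317% of genes were called in this comparison and with every gene tested 0.0847%, so 0 of 7 is no result about these genes. The first share rests on 33 genes, a number that went to 130 without knockout pericyte replicate 1 and to 3 without replicate 3.

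Aspn averaged 8.20 ± 0.42 with endosialin and 7.92 ± 0.11 without it (SD, n = 4 each). Its difference was -0.28 (-0.58 to 0.01, limma, adjusted p = 0.728), and the groups overlapped because wild-type replicates 2 and 3 lay among the knockout arrays. Prelp differed by -0.05 (-0.28 to 0.18, limma, adjusted p = 0.970) and Fmod by 0.05 (-0.09 to 0.19, limma, every probe tested, adjusted p = 0.941). Ogn had the smallest unadjusted p of the 7. It averaged 7.52 ± 0.11 with endosialin and 7.34 ± 0.11 without it (SD, n = 4 each), with overlapping arrays and a difference of -0.18 (-0.35 to -0.02, unadjusted p = 0.0309 and adjusted p = 0.632 in limma). Its other probes were read in the fit of every probe, where the representative one had an unadjusted p of 0.0125 (limma, adjusted p = 0.453). The second probe read 7.68, 7.88, 7.64 and 7.23 in wild type and 7.44, 7.21, 7.24 and 7.15 in knockout. That probe differed by -0.35 (unadjusted p = 0.00377, limma, adjusted p = 0.275), and the remaining one by -0.14 (limma, adjusted p = 0.668). The 3 probes thus shared a sign and none passed.

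Endothelial cells, with little Cd248 in either genotype, gave 0 of the 7 genes past the threshold as well, in a comparison that called 0.00959% of filtered genes and 0.00605% of all genes. Bgn, the member above the array median there, had means of 8.10 ± 0.30 (wild type) and 8.30 ± 0.17 (knockout; SD, n = 4 each), with overlapping arrays and a difference of 0.20 (-0.08 to 0.48, limma, adjusted p = 1.00). Fmod differed by 0.11 (-0.03 to 0.26) and the other five by between -0.02 and 0.05. Over the 14 probes, the genotypes did not overlap for 1 probe in pericytes and 1 in endothelial cells, against 3.17% and 2.45% of all probes. The former was the dimmest Ogn probe (ILMN_2740622), at 7.10 to 7.28 in wild type and 6.88 to 7.08 in knockout. The latter was Aspn, at 6.76 to 6.77 in wild type and 6.78 to 6.80 in knockout, a gap at the floor of the scale.

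The difference between the knockout effects in the cell types was called for 0 of the 7 genes and for 0.0192% of filtered genes. It was -0.38 for Bgn (-0.78 to 0.02, unadjusted p = 0.0610 and adjusted p = 1.00 in limma), which stood at -0.18 in pericytes and 0.20 in endothelial cells. It was -0.31 for Aspn and -0.21 for Ogn (limma, adjusted p = 1.00 each). With the cell type difference in each genotype as given above, the knockout values were 4.26, 3.78 and 3.45 for Dcn, Bgn and Lum against 4.32, 4.16 and 3.35 in wild type.

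**Figure D4:**
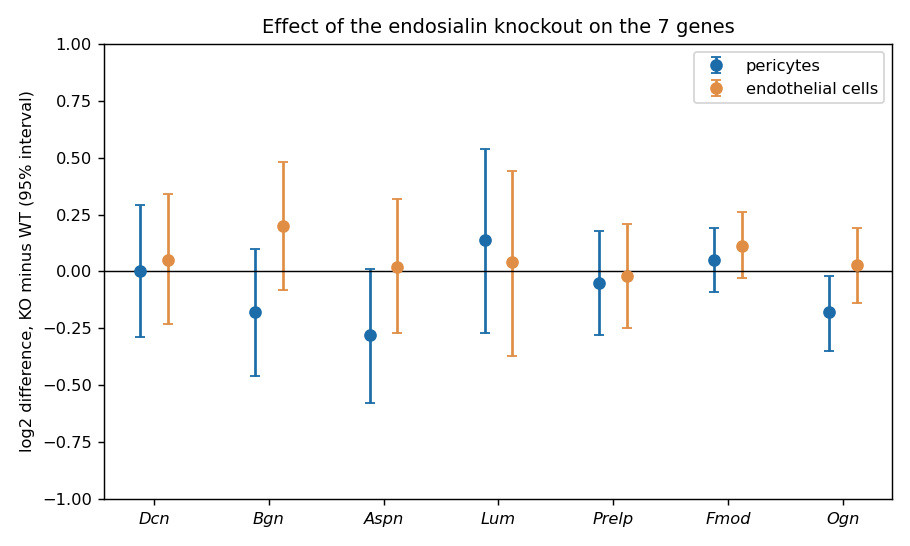
Log2 difference between knockout and wild-type hosts for the 7 genes in pericytes and endothelial cells, with 95% limma intervals. All intervals but that of Ogn in pericytes include 0, and none of the differences passed after adjustment.

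None of the partner lists held a called gene in the knockout comparisons when every gene was tested. Over all genes 0.0847% were called in pericytes and 0.00605% in endothelial cells, so the lack of calls is no result about the partners. In pericytes the median difference was -0.12 for the 13 collagens, -0.01 for the 25 chondroitin and dermatan sulfate enzymes, -0.17 for the 4 keratan sulfate enzymes, -0.06 for the 11 receptors, 0.03 for the 9 growth factors and 0.10 for the 10 proteases, where all genes had -0.00. Keratinocyte markers moved with the genotype of the pericyte arrays. Their mean was 7.58, 9.69, 9.70 and 9.28 on knockout arrays 1 to 4 against 7.06, 6.99, 7.73 and 7.24 on wild-type arrays. In the filtered fit 12 of the 13 markers kept were called higher in knockout pericytes, with a median of 1.78, where 0.317% of genes were called. The mean of these 13 lay between 6.85 and 6.93 on endothelial arrays. Passing the filter thus rested largely on the high pericyte arrays and favoured a positive difference, so nothing is read from that count. With every gene tested 2 of 19 were called higher, with a median of 1.55, against 0.0847% of genes called. With that mean as a covariate, Bgn turned from -0.18 to 0.13, Prelp from -0.05 to 0.35 and Lum from 0.14 to -0.06, and none passed.

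For each of the 7 genes the range within wild-type pericytes was wider than the difference between the genotype means. Among their representative probes, the SD there was largest for Lum, Aspn and Dcn, at 0.61, 0.42 and 0.37. On wild-type arrays 1 and 4 Dcn read 11.02 and 10.69 and Lum 9.76 and 9.41, while on arrays 2 and 3 Dcn read 11.55 and 11.28 and Lum 10.60 and 10.63. Aspn ran the other way, at 8.47 and 8.65 on arrays 1 and 4 and 7.82 and 7.87 on arrays 2 and 3. Marker lists split the same arrays. The mean of the pericyte markers was 9.27 and 9.64 on wild-type arrays 1 and 4 and 8.36 and 8.44 on arrays 2 and 3, whereas the mean of the fibroblast markers was 9.96 and 9.70 on arrays 1 and 4 and 10.32 and 10.24 on arrays 2 and 3. The collagens followed the fibroblast markers, at 10.16 and 9.87 against 10.39 and 10.36, and 2 of them are on both lists. The knockout arrays were closer together, with pericyte markers between 8.64 and 8.92 and fibroblast markers between 9.86 and 10.26. The mast cell mean ran from 6.94 to 9.92 on wild-type arrays in another order, with 6.94, 7.56, 9.26 and 9.92 on arrays 1 to 4. The part of any of these cell types in the array differences was not tested.

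**Figure D5:**
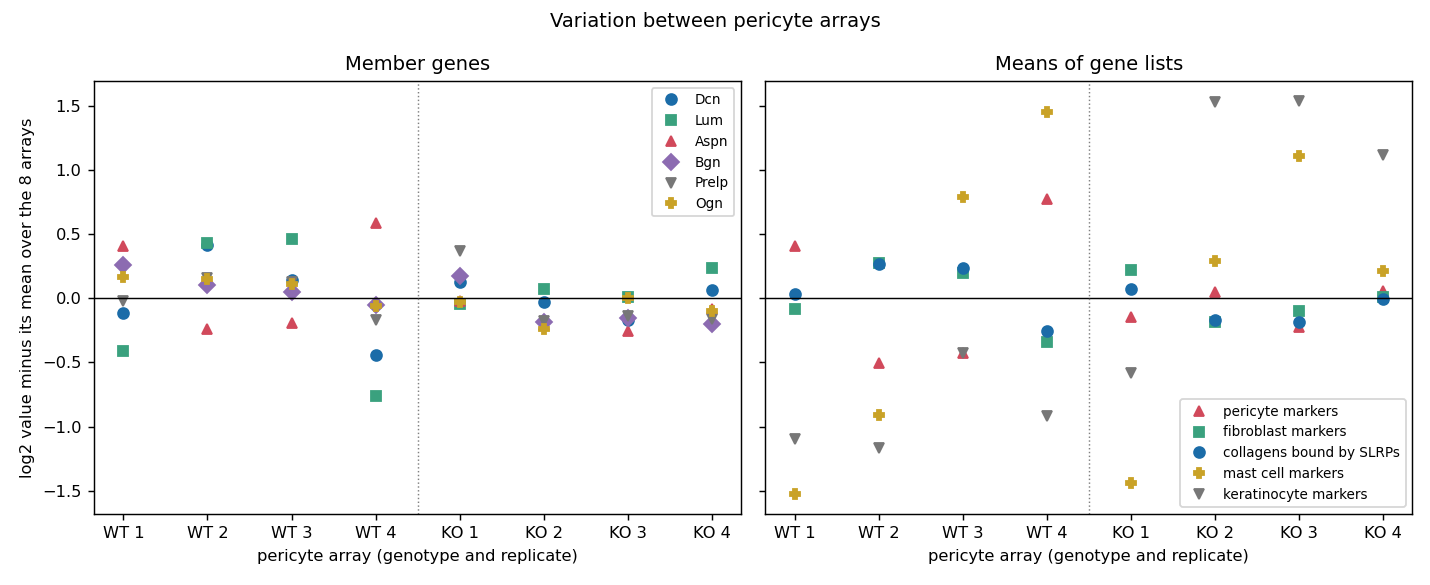
Log2 values on the 8 pericyte arrays as deviations from their mean over these arrays, for 6 of the genes (left) and for the means of marker and collagen lists (right). On wild-type arrays 1 and 4 Aspn and the pericyte markers are high and Lum and the fibroblast markers low.

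Over the 8 pericyte arrays, 15 pairs of the 6 filtered genes were correlated, and no pair passed after adjustment over the 15. Dcn and Lum, neighbours on the chromosome, had the highest Pearson r, 0.86 (exact permutation p = 0.00694, adjusted p = 0.0699), with a Spearman rho of 0.79 (exact permutation p = 0.0279, adjusted p = 0.209). Their r was 0.88 for deviations from the genotype means and 0.64 without the 2 arrays farthest from the median of Dcn. In each pair below, the 2 arrays left out are likewise those farthest from the median of the gene named first. Lum and Aspn had an r of -0.90 (exact permutation p = 0.00933, adjusted p = 0.0699) and a rho of -0.64 (exact permutation p = 0.0962, adjusted p = 0.240). Without the 2 farthest arrays that r was -0.32, so the relation rests on those samples. Bgn had an r of 0.76 with Ogn (exact permutation p = 0.0300, adjusted p = 0.150) and a rho of 0.79 (exact permutation p = 0.0279, adjusted p = 0.209), and r was 0.64 without the 2 farthest arrays. Dcn and Aspn had an r of -0.69 (exact permutation p = 0.0704, adjusted p = 0.211) and a rho of -0.33 (exact permutation p = 0.428, adjusted p = 0.728), and r was -0.22 without the 2 farthest arrays. Bgn went with Prelp (r of 0.73, exact permutation p = 0.0454, adjusted p = 0.170; rho of 0.74, exact permutation p = 0.0458, adjusted p = 0.229), and r was 0.94 without the 2 farthest arrays. The arrays left out for Bgn with Prelp were chosen by Bgn alone, and knockout replicate 1, where Prelp read 7.84, was kept. Bgn and Lum had an r of -0.13 (exact permutation p = 0.745, adjusted p = 0.798) and a rho of -0.26 (exact permutation p = 0.536, adjusted p = 0.728). All arrays of a pair share their labelling and their normalization.

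By likeness over the 16 arrays, the 5 genes closest to the mean of the 6 filtered members were Col1a2, Rarres2, Gas1, Thbs2 and Col3a1, each with an r of 0.999, a value that the gap between the cell types sets. Within the 8 pericyte arrays, as deviations from genotype means, the closest to Dcn were Tgfbr3, the betaglycan co-receptor of TGF-beta, at 0.985 and LOC100048332 at 0.984. The closest to Bgn were Abhd4 at 0.986 and the matricellular thrombospondin Thbs4 at 0.978, and the closest to Lum were the tropomyosin gene Tpm3 at 0.988 and Cpxm1 at 0.980. Aspn was closest to Zc3h15 at 0.991 and to Mylk, the myosin light chain kinase of contractile cells, at 0.985. Ogn was closest to Rhou at 0.943 and the mesenchymal cadherin Cdh11 at 0.934, and Prelp to D330008E13Rik at 0.988 and Lrch3 at 0.980. Each is the highest value among all filtered genes over 8 points and describes these arrays alone.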

How the data were processed

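Illumina MouseWG-6 v2 bead arrays measured amplified total RNA of 16 sorted cell samples, 4 arrays in each of 4 groups taken from the labels. The deposited table holds log2 intensities that the authors normalized; the submitters' processing notes name GenomeStudio and lumi. Versions, background correction, transform and scaling between arrays were not given in the sources used here. All 24040 probes differed from the repository's value table by at most 5.00e-09, and it holds 0 columns of samples outside the series. Values were used as deposited. Precision is limited by the number of arrays.

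Probes were kept when they lay above the median of their array on at least 4 of 16 arrays (14632 probes), and the kept probe with the highest mean stood for its gene (10426 genes). All 14 probes of the 7 genes were also fitted with every probe of the table, and every gene was fitted with no filter (16537 genes). A group-means model on all 16 arrays was fitted with limma 3.58.1 in R 4.3.3, with 12 residual and 5.58 prior degrees of freedom, 5 contrasts, moderated two-sided tests and Benjamini-Hochberg adjustment at 0.05, and was tested on simulated data. Intervals are 95% intervals of the fit, which pools the spread of the 4 groups. Correlations used two-sided exact permutation tests (scipy 1.17.1). Partner and marker lists name textbook genes, and up to 4 filtered genes of each partner list were named, those with the smallest adjusted p in wild type. The members and lists were chosen with earlier results of these data known. Alternatives were other filters, every probe singly, quantile normalization, array weights, a trended robust variance, fits of only the groups compared, a replicate block, the repository's values, each array left out, knockout pericyte replicates 2 to 4 left out, and the keratinocyte mean as a covariate. Promoters and gene order are from RefSeq (GRCm38.p6), and the files name no build.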

Additional observations from a re-analysis of the deposited data

Results flagged for a closer look

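Each of the 14 probes was examined in each of the 4 groups for an array standing apart from the other three by Dixon's gap ratio at the 95% level. This marked 7 of 56 probe and group pairs, where chance marks about 1 in 20. In knockout pericytes, replicate 1 was the high array for 3 probes. Bgn read 12.34 there against 11.96 to 12.01 on the other arrays, Prelp read 7.84 against 7.29 to 7.33, and the Dcn probe ILMN_2604695 read 7.73 against 7.49 to 7.53. This is the array that the second principal component set apart from knockout replicates 2 to 4, and its keratinocyte marker mean was 7.58 against 9.28 to 9.70 on those arrays.

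The other marked arrays were near the floor of the scale. The Fmod probe ILMN_2999762 read 6.99 on wild-type pericyte replicate 1 against 6.78 to 6.81, and 6.78 on knockout pericyte replicate 2 against 6.89 to 6.90. The Ogn probe ILMN_2859613 read 6.91 on knockout endothelial replicate 4 against 6.78 to 6.79, and Prelp read 6.85 on wild-type endothelial replicate 4 against 6.78.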

How the results depend on the processing

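All 130 alternative counts of members called stayed within a limit set on their ratio to the main count, which the stricter filter just met. They were 6 higher in pericytes in each genotype, except 4 of 4 tested with a stricter filter, and 0 in each knockout comparison. Most of these counts are over filtered genes, where passing the filter already favoured a positive difference, so nothing is read from their shares. With no filter, 6 of 7 genes were higher in each genotype, beside 12.7% (wild type) and 13.4% (knockout) of all 16537 genes. The labels number replicates alike in every group, but no comparison had a correlation above 0.1 in every same-numbered pair (0.43, 0.12, 0.09 and 0.04 for the cell types in wild type, 0.22, 0.19, 0.17 and 0.03 in knockout, 0.45, -0.08, -0.03 and 0.02 for the genotypes in pericytes, and 0.15, 0.10, -0.17 and -0.18 in endothelial cells), so the numbers were not taken as pairs. As a hint from the data, 7 of 8 samples correlated best with their own number in each cell type comparison, against 2 and 3 of 8 between genotypes. The replicate block joined the same-numbered arrays of all 4 groups, across genotypes as well as cell types. Pairs within each genotype alone were not fitted, so the block does not test the pairing hinted at. With the block 6, 6, 0, 0 and 0 members were called. Calls over all genes went from 3772 to 3871 and from 3743 to 3815 between cell types and from 33 to 40 between pericyte genotypes.

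Of 770 alternative differences of single members, 743 kept direction and side of the threshold and 27 turned sign, none of them called. Array weights turned the difference of effects of Dcn from -0.05 to 0.01. Without knockout pericyte replicates 2 to 4, which leaves 1 array in that group, the knockout differences in pericytes were 0.09 for Bgn and 0.35 for Prelp, and the differences of effects 0.07 for Dcn, -0.01 for Lum and 0.37 for Prelp. With the keratinocyte covariate, whose genes differ between the genotypes, the pericyte values were 0.13 for Bgn, -0.06 for Lum and 0.35 for Prelp, and the differences of effects 0.10 for Dcn, -0.09 for Lum and 0.37 for Prelp. With 1 array left out, the knockout difference in pericytes lay between -0.15 and 0.14 for Dcn and -0.10 and 0.31 for Lum, that of Ogn in endothelial cells between -0.00 and 0.04, and the difference of effects between -0.20 and 0.08 for Dcn, -0.13 and 0.28 for Lum and -0.16 and 0.02 for Prelp. The cause was not tested. Calls over all genes between pericyte genotypes moved from 33 to 14 with no filter, 7 with a stricter one, 16 with a trended robust variance, 16 with every probe singly, 1 with the pericyte arrays alone, with the covariate or without knockout pericyte replicates 2 to 4, and 96 with array weights. They moved to 130, 4, 3 and 17 without knockout pericyte replicates 1, 2, 3 and 4, to 13, 8 and 12 without wild-type pericyte replicates 1, 2 and 4, to 15 without wild-type endothelial replicate 4, and to 12, 15 and 15 without knockout endothelial replicates 1, 3 and 4. The difference of effects went from 2 to 53 without knockout pericyte replicate 1, to 10 with array weights and to 1 under the other settings that moved it. Between endothelial genotypes 1 went to 4 with every probe singly and to 2 with array weights or without wild-type endothelial replicate 2. Between cell types 3743 in knockout went to 2467 with a stricter filter, 6366 with every probe singly, 2207 without knockout pericyte replicates 2 to 4 and 1916 with the covariate, and 3772 in wild type to 6220 with every probe singly. Signals near the floor limit what Fmod, Ogn, Prelp and the endothelial levels can show.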
